A study of Rattus norvegicus with 6 samples.

Results

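Mast cell proteases, the enzyme that makes histamine and the mast cell receptors for IgE and stem cell factor were followed in early granulation tissue of the rat. The 10 genes Hdc, Tpsab1, Tpsb2, Cpa3, Cma1, Mcpt1, Mcpt2, Kit, Ms4a2 and Fcer1a were chosen as known mast cell genes and were found by the gene symbol of their array probes. Of these, 9 had a probe, 1 each, among 13336 named genes on the array, and Mcpt2 is not analysed here. The tissue had grown in uncoated cellulose implants implanted subcutaneously, with no other treatment in the labels; the animals were 10-week-old Sprague-Dawley rats. Rats 1, 2 and 3 gave day 1 tissue (24 hours after implantation) and rats 4, 6 and 7 gave day 3 tissue (72 hours), with 1 Illumina BeadChip array per rat. Every array comes from a different animal, so each comparison is unpaired and rests on 3 rats a day.

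Mast cells are resident cells of connective tissue that store histamine and proteases in granules and release them when IgE bound to their receptor is crosslinked. Tryptases, chymases and carboxypeptidase A3 make up most of the stored protease, and rat mast cells of connective tissue and of mucosa carry different chymases. Histamine is made from histidine by a single decarboxylase, Hdc, which is also induced in neutrophils and macrophages during inflammation. Whether Hdc moved with the mast cell proteases or with neutrophil genes was therefore examined in each rat.

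Of the 9 genes with a probe, 5 were above background on all 6 arrays, and these 5, Hdc, Tpsab1, Tpsb2, Cpa3 and Cma1, fell from day 1 to day 3. Ms4a2 and Fcer1a also fell, but passed the filter on dim probes through day 1, and Kit and Mcpt1 were at background. Hdc fell by 3.73 on the log2 scale (13.3-fold), among the largest falls of the 8638 genes tested: it ranked 1, just ahead of the granulocyte gene Retnlg, and between 1 and 5 under the alternatives tried. The tryptase Tpsab1 fell 4.86-fold, and the other granule proteases and IgE receptor subunits fell between 1.55-fold and 2.85-fold. Within day 1, Hdc was lowest in rat 3, where Tpsab1, Tpsb2, Cpa3, Cma1 and Fcer1a, like 18.3% of all genes that fell, were highest. Most neutrophil genes, like 62.5% of all genes that fell, were lowest of day 1 in rat 3. Within day 3, Hdc was highest in rat 7, where most neutrophil genes, like 63.6% of all genes that fell, were lowest. The other 6 tested mast cell genes were highest in rat 4, the only day 3 array above background for Ms4a2 and Fcer1a. The share of all genes that fell and were highest of day 3 in rat 4 was not counted, so this order has no comparison.

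The sequences ahead of the transcription start are shown for the 6 genes that fell and have an entry, as a description. Each is the 250 bases before the start in RefSeq's GRCr8 table, which held 8 of the 10 genes. For Cpa3 and Fcer1a that start lies inside the gene's listed span, so the last 16 and 44 bases are not printed, and positions are still counted from the table's start. Capitals mark GATAA, the core bound by GATA factors, and CACATG, an E-box of the kind bound by Mitf, each searched on both strands; a match on the reverse strand is printed as its reverse complement. GATA2 and Mitf are transcription factors that mast cells need in the mouse. Mitf had no probe on the array, and whether either factor had a part in these falls was not tested.
Hdc (chr3:134318705-134318954, minus strand): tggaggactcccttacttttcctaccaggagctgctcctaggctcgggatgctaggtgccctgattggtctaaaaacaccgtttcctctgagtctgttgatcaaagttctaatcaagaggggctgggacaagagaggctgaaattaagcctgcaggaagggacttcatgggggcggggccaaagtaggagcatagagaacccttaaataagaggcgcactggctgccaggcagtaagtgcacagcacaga
Tpsab1 (chr10:14867303-14867552, minus strand): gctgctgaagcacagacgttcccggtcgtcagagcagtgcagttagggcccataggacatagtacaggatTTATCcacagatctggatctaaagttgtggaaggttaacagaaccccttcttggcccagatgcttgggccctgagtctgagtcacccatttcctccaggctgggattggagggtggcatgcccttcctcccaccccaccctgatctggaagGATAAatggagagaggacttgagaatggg
Tpsb2 (chr10:14886060-14886309, plus strand): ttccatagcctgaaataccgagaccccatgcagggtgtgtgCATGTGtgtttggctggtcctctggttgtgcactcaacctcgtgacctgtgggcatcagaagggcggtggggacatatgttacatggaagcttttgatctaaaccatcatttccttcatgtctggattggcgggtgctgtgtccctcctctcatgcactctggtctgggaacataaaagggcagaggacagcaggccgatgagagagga
Cpa3 (chr2:104673254-104673487, minus strand): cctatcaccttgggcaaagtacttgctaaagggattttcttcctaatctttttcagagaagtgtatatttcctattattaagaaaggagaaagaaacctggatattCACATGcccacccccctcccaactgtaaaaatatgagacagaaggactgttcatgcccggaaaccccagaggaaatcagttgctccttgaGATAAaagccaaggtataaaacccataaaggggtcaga
Cma1 (chr15:33390134-33390383, minus strand): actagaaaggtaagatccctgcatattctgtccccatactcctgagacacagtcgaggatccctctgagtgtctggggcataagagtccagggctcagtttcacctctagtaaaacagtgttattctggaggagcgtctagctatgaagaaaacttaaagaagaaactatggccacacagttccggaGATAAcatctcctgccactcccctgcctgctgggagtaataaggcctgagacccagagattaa
Fcer1a (chr13:88224724-88224929, minus strand): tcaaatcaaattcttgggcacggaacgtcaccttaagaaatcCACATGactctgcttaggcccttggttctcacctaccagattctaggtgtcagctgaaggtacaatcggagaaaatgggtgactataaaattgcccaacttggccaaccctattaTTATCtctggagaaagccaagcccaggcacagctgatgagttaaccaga

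GATAA was present in the windows of Tpsab1 (2 matches), Cpa3, Cma1 and Fcer1a, and CACATG in those of Tpsb2, Cpa3 and Fcer1a. Counted from the start, the nearest GATAA match ended at base -25 in Tpsab1, -50 in Cpa3, -59 in Cma1 and -89 in Fcer1a. Of the windows not printed, that of Mcpt1 also held GATAA. The windows of Hdc and Kit held neither run of letters. Of 33469 windows of the same length in the table, 23.5% held GATAA and 12.1% held CACATG. The matches are a description of these letters and show no binding.

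All 6 arrays held 22517 probes with a median intensity of 104 and were scaled to the same distribution. A background limit of 101 was estimated from the values, which is 6.43 on the log2 scale used below. Across the 12097 probes tested, rat 3 correlated with rats 1 and 2 at 0.956 and 0.963, while rats 1 and 2 correlated at 0.991 and the day 3 arrays at 0.988 to 0.992 (correlations across probes, which are not independent). Adipocyte genes stood apart in rat 3, with 12 of 12 measured genes highest of day 1 there, and skeletal muscle genes were high in rats 2, 3 and 6. Of 13 fibroblast genes 10 rose and 0 fell, where 12.6% of all probes tested rose and 9.97% fell. A rise between the days does not check the tissue label. Of 9 macrophage genes 3 fell and 4 rose.

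Hdc had intensities of 5811 in rat 1, 4605 in rat 2 and 1488 in rat 3 at day 1, against 226 in rat 4, 254 in rat 6 and 347 in rat 7 at day 3. All day 1 values lay above all day 3 values, and the lowest day 1 rat was still well above the highest day 3 rat. On the log2 scale the levels were 11.73 ± 1.06 at day 1 and 7.997 ± 0.339 at day 3 (mean ± SD, n = 3 rats per day). The difference of -3.73 had an SE of 0.50 and a 95% interval of -4.93 to -2.53, with limma adjusted p = 0.00443. Without rat 3 the difference in Hdc was -4.34, and with each other rat left out in turn it was between -3.92 and -3.35, past the test in each of these 6 refits. Here and below a lower level in bulk tissue cannot tell fewer cells of a type from less RNA per cell.

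Tpsab1, a tryptase of the mast cell granule, had intensities of 548, 578 and 810 in rats 1, 2 and 3 and of 188, 127 and 123 in rats 4, 6 and 7. The days did not overlap, and the highest value was in rat 3. Its log2 level went from 9.28 ± 0.31 to 7.00 ± 0.38 (SD, n = 3), a fall of 2.28 (SE 0.24, limma adjusted p = 0.00209). Tpsab1 and Hdc were also the genes of this group that passed a test without moderation of the variance (adjusted p = 0.0348 and 0.0497).

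Tpsb2, the second tryptase, read 231, 302 and 347 at day 1 and 153, 102 and 119 at day 3, in the same order of rats. Again rat 3 was highest and no day 3 value reached a day 1 value, although rat 6 lay just above the background limit. Its fall of 1.35 (SE 0.22) had limma adjusted p = 0.0083 and was past the test in each refit that left out 1 rat. Tpsab1 and Tpsb2 are related genes, and whether their probes read each other's transcripts was not tested.

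Cpa3, the carboxypeptidase stored with the tryptases, read 250, 376 and 531 at day 1 and 209, 124 and 104 at day 3. Rat 1 at day 1 and rat 4 at day 3 lay close together, at log2 7.87 and 7.60. The fall of 1.51 (SE 0.37, adjusted p = 0.0307) did not pass without rat 2, 6 or 7 (limma adjusted p = 0.0989, 0.107 and 0.101). Cma1, a chymase of connective tissue mast cells, was bright on all arrays, with intensities of 1195, 1342 and 1381 at day 1. At day 3 it read 914, 416 and 697, with rat 6 lowest. Its day 1 values were tight (SD 0.11) and its day 3 values spread (SD 0.59), and the fall of 1.04 (SE 0.28) had limma adjusted p = 0.0408. It did not pass without rat 1, 2 or 7 (adjusted p = 0.0808, 0.12 and 0.0978).

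**Figure D1:**
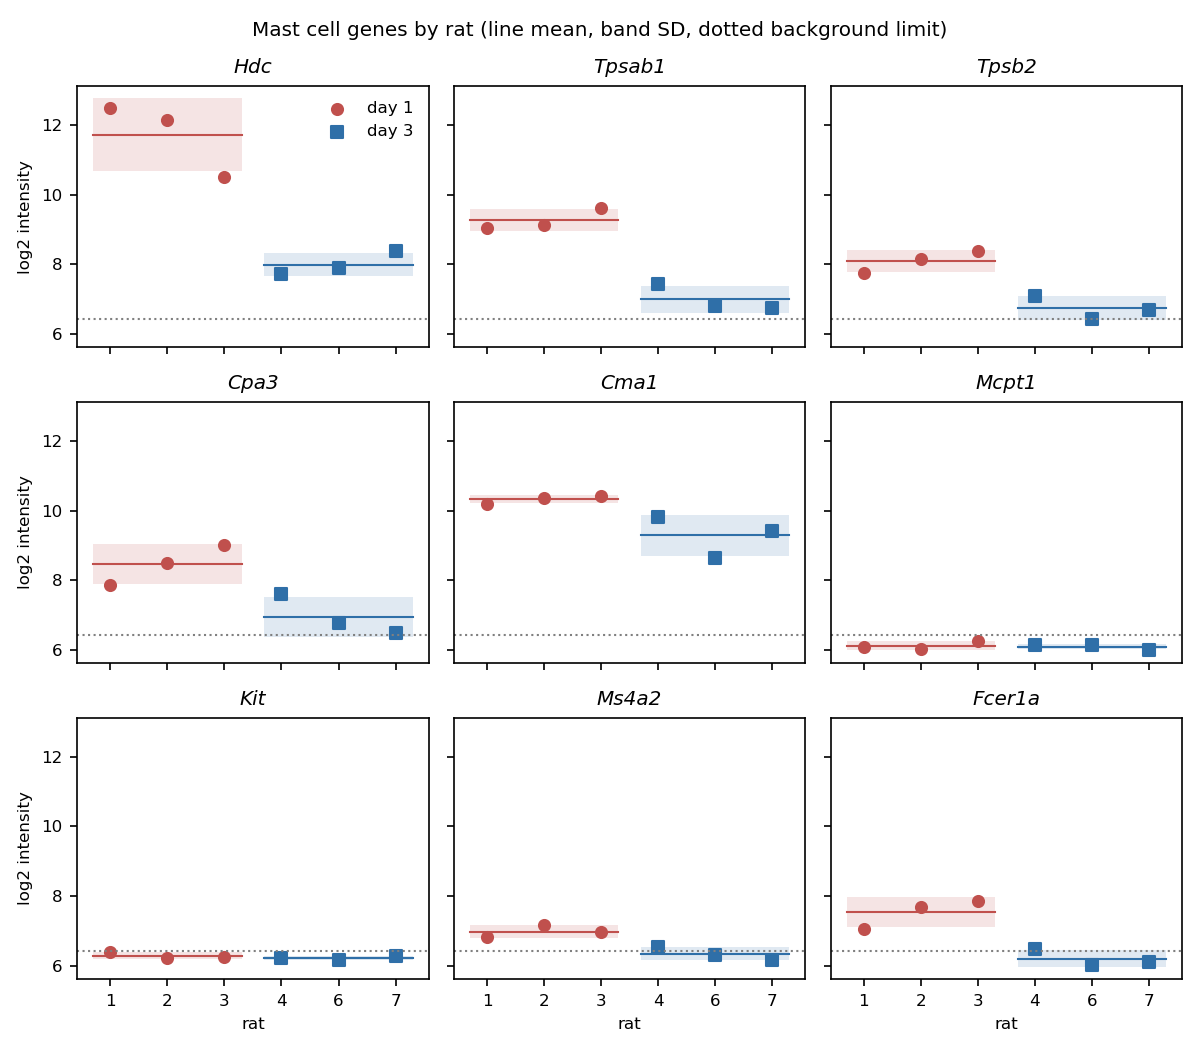
Log2 intensity (y axis) of the 9 mast cell genes with a probe in each rat (x axis), with circles for day 1, squares for day 3, a line at each day's mean, a band of 1 SD and a dotted line at the background limit of 6.43. Hdc drops from 12.50, 12.16 and 10.52 to between 7.72 and 8.37, while Mcpt1 and Kit stay below the limit on all 6 arrays.

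The receptor genes were dim. Fcer1a, the chain of the high-affinity receptor that binds IgE, read 147, 222 and 248 at day 1 and 105, 80.2 and 84.1 at day 3. Only rat 4 was above background at day 3, and the days did not overlap. Fcer1a fell by 1.33 (SE 0.24, limma adjusted p = 0.011), or by 1.09 with values below background set to the limit. Without rat 2 the adjusted p was 0.0501.

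Ms4a2, the chain of that receptor that amplifies its signal, read 128, 159 and 139 at day 1 and 109, 94.97 and 86.9 at day 3. Again only rat 4 was above background at day 3. It fell by 0.64 (SE 0.14, limma adjusted p = 0.0233), or by 0.51 with values set to the limit, and did not pass without rat 2, 6 or 7 (adjusted p = 0.0786, 0.0847 and 0.0763). Fcer1a and Ms4a2 were kept for the test mainly through day 1, where they were high, so the filter itself favours a fall in them.

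Kit, the receptor for stem cell factor, read 86.2 to 99.2 and was above the background limit on 0 of 6 arrays. Mcpt1, a chymase, read 79.5 to 91.9 and was above the limit on 0 of 6 arrays. RefSeq gives both rMCP-1 and rMCP-2 as earlier names of the gene behind this probe. No fold is given for either gene, and values this close to background do not show that the transcripts were absent.

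As a count, 5 of the 5 genes above background on all 6 arrays fell, where 9.97% of all 12097 probes tested fell and 12.6% rose. Their median difference was -1.51, against -0.01 for all 8638 genes. In 5 of these 5 the days did not overlap, as in 39.8% of all probes. With no filter on dim probes 6 of 9 fell, Cma1 missing the threshold at adjusted p = 0.0585. Counting Ms4a2 and Fcer1a too, the number that fell was 3 without rat 2, 4 without rat 7 and 7 without rat 3. It was 2 without moderation of the variance.

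Within day 1, rat 3 set Hdc apart from the granule proteases and Fcer1a. Hdc in rat 3 was 1.81 below the mean of rats 1 and 2 on the log2 scale, the 12th lowest such difference of 8638 genes. Tpsab1 was 0.54 higher in rat 3, Tpsb2 0.41, Cpa3 0.83, Fcer1a 0.49 and Cma1 0.13 higher, whereas Ms4a2 differed by -0.03. Of 9 tested genes in a list of other mast cell genes, 3 were lowest of day 1 in rat 3 and 3 were highest. Srgn, the serglycin gene, was among the lowest (-0.54). Of the 20 measured genes in a list of neutrophil markers, 15 were lowest of day 1 in rat 3 and 1 was highest, with a median difference of -0.42. For comparison, 62.5% of all 931 genes that fell were lowest of day 1 in rat 3 and 18.3% were highest there. These differences come from 1 rat against 2 and carry no test.

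Retnlg, a resistin-like protein of granulocytes, had log2 levels of 14.11, 13.86 and 11.31 in rats 1, 2 and 3, 2.68 lower in rat 3. The granule protein Pglyrp1 was 0.92 lower in rat 3, the gelatinase Mmp9 1.10 lower and Stfa2l1, a stefin-like protease inhibitor, 1.30 lower. Among those that differed little were the chemokine receptor Cxcr2 (-0.05) and haptoglobin, Hp (0.02). Mpo, myeloperoxidase, went the other way, with 6.91 and 7.13 in rats 1 and 2 and 9.52 in rat 3. The rat 3 difference of Hdc, -1.81, thus lay between those of Retnlg and Stfa2l1.

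The summed intensity of the 12 adipocyte genes was 201954 in rat 3 against 51302 and 73229 in rats 1 and 2, and between 45883 and 68295 at day 3. The neutrophil list summed to 139797, 121991 and 89279 in rats 1, 2 and 3 and to between 50333 and 60345 at day 3. Lcn2, the siderophore-binding lipocalin, made up 22361 to 31537 of each day 3 sum and differed by 0.72 (adjusted p = 0.0776). Without it the list summed to 117118, 109479 and 73059 at day 1 and to 31380, 37426 and 18796 in rats 4, 6 and 7. S100a9, Ngp, Ltf, Fpr1, Np4 and Defa5 of that list were too dim to be kept. What part the other tissue in rat 3 had in its mast cell values was not tested.

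Within day 3 the pattern was another. Hdc in rat 7 was 0.57 above the mean of rats 4 and 6, while 16 of 20 neutrophil genes were lowest of day 3 in rat 7 and 2 were highest (median difference -0.62). Of all 931 genes that fell, 63.6% were likewise lowest of day 3 in rat 7. Retnlg was 1.36 lower and S100a8, a subunit of calprotectin, 1.16 lower in rat 7. Among mast cell genes Cpa3 was 0.70 lower and Tpsab1 0.37 lower in rat 7, and Cma1 was 0.18 higher. Tpsab1, Tpsb2, Cpa3, Cma1, Ms4a2 and Fcer1a were all highest of day 3 in rat 4, where Hdc was lowest. For Ms4a2 and Fcer1a only rat 4 was above background at day 3. How many of all genes that fell were highest of day 3 in rat 4 was not counted, so this order has no comparison. Of those 931 genes, 137 (14.7%) were highest of day 3 in rat 7, and 91 (9.77%) combined this with the lowest day 1 value in rat 3, as Hdc did.

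**Figure D2:**
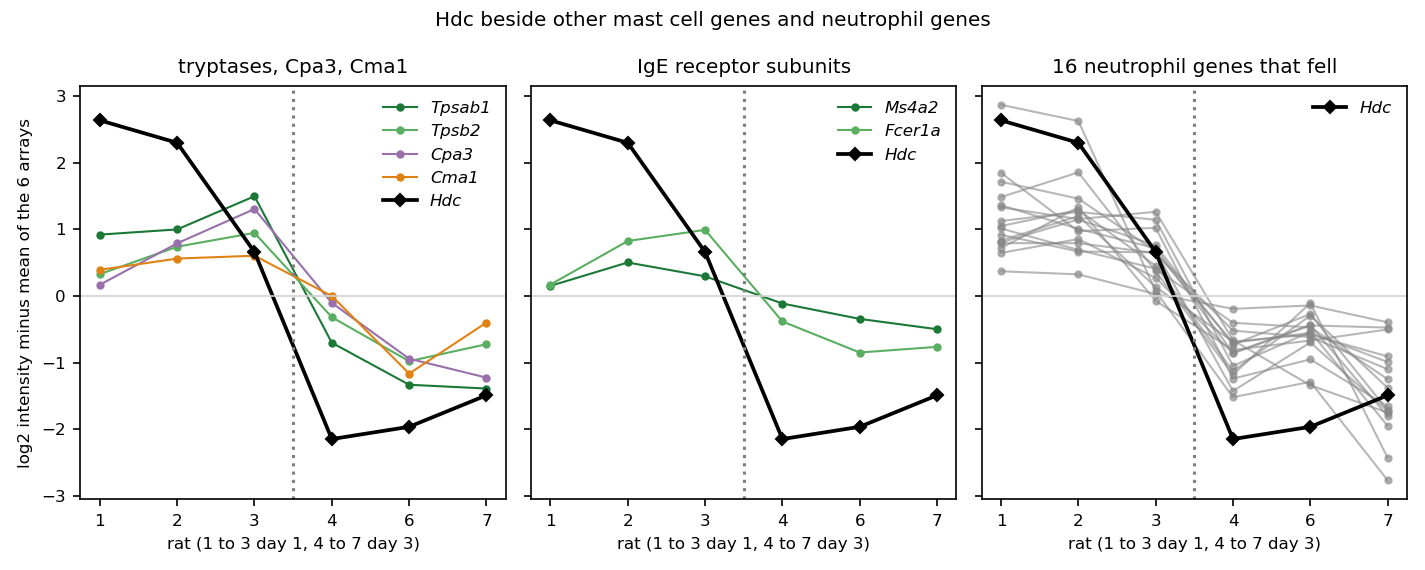
Log2 intensity minus the mean of the 6 arrays (y axis) in each rat (x axis), with Hdc in black beside 4 granule proteases, 2 IgE receptor subunits and the 16 neutrophil genes that fell; lines only join the values of a gene. In rat 3 Hdc lies 1.81 below the mean of rats 1 and 2 while the granule proteases lie 0.13 to 0.83 above it, and in rat 7 Hdc is the highest of day 3.

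**Figure D3:**
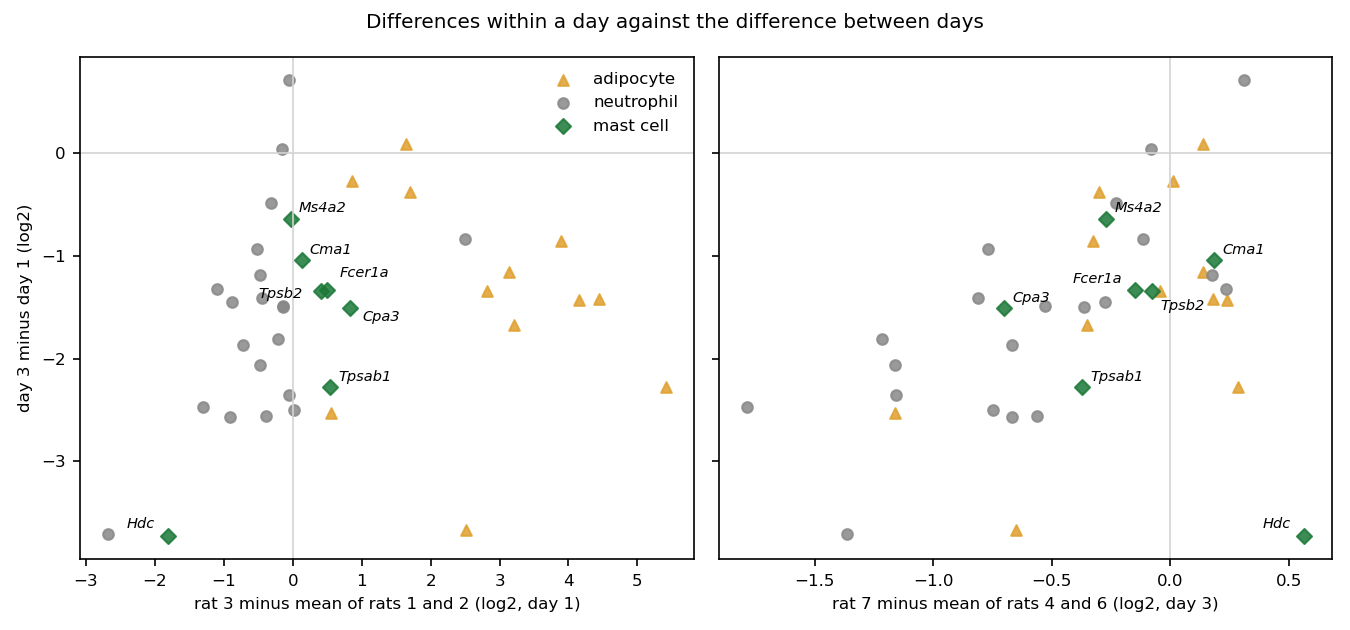
Difference between days (y axis, day 3 minus day 1, log2) against the difference of rat 3 from rats 1 and 2 (left) and of rat 7 from rats 4 and 6 (right), for mast cell, neutrophil and adipocyte genes, 1 point a gene. Hdc lies at -1.81 on the left near Retnlg at -2.68, and at 0.57 on the right, where Retnlg is at -1.36.

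The 10 genes whose profile lay nearest to Hdc, by root mean square distance of log2 values centred on each gene's mean over the 6 arrays, held 3 genes of the neutrophil list and 0 mast cell genes. They were, from the nearest, Ces1c (distance 0.55), Gnmt, Retnlg (0.70), Ass1, Ptges, Olah, Pglyrp1 (0.79), Serpinb10, Mmp8 (0.86) and Ltb (0.87). Ces1c is a carboxylesterase, Gnmt a glycine methyltransferase, Ass1 argininosuccinate synthase, and Ptges the prostaglandin E synthase of inflammation. Ces1c had 10.50, 10.40 and 7.96 at day 1 and 6.78, 6.82 and 6.93 at day 3, low in rat 3 and marginally highest of day 3 in rat 7, as Hdc was. Tpsab1 ranked 60 of 8637 in nearness to Hdc, Tpsb2 290, Fcer1a 333, Cpa3 412, Cma1 460 and Ms4a2 876. This distance counts the size of a change, so genes with large falls lie nearer to Hdc whatever their cell type.

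For Tpsab1 the nearest profiles were Il22ra2, a soluble receptor that binds interleukin-22 (distance 0.17), Acad11 (0.20), Gbe1 (0.24) and Hp (0.25), followed by Ccl7, Ppp1r3b, Rbm47, Mefv, Sh2b2 and Chi3l1 (0.32). Among mast cell genes Cpa3 ranked 40 in nearness to Tpsab1, Tpsb2 63, Fcer1a 80, Cma1 236, Ms4a2 642 and Hdc 3250 of 8637. The neutrophil genes Cxcr2 and Ncf4 ranked 48 and 62, between Cpa3 and Tpsb2. By this measure several neutrophil genes lay as near to the tryptase as the other proteases did.

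The difference of Hdc from 7 single genes was formed in each rat and its change between the days tested with an exact two-sided permutation test, for which 0.1 is the smallest p that 3 rats against 3 allow. The gap between Hdc and Tpsab1 was 3.44, 3.03 and 0.89 in rats 1, 2 and 3 and 0.28, 1.10 and 1.63 in rats 4, 6 and 7. Hdc thus fell by 1.45 more than Tpsab1 on average (exact p = 0.3), with rat 3 inside the range of day 3. The gap changed by -2.22 against Cpa3 (exact p = 0.2) and by -2.69 against Cma1 (exact p = 0.1). Among neutrophil genes it changed by -1.17 against Mmp8 and against Pglyrp1 (exact p = 0.2 each) and by -2.24 against Csf3r, the receptor for granulocyte colony-stimulating factor (exact p = 0.1). Against Retnlg it changed by -0.02, from -1.36 ± 0.50 to -1.38 ± 1.11 (SD, n = 3; exact p = 1). Adjusted over the 7 pairs no p was below 0.28, so none of these falls was shown to differ from that of Hdc, and the test could not have shown it.

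Of 22 names listed for other mast cell genes, in which Serglycin repeats the gene Srgn, 17 had a probe and 9 were tested. Of these 9, 1 fell, 1 rose and 7 did not pass (median 0.02). These counts are near the shares of all probes that fell (9.97%) and rose (12.6%). Srgn, the core protein of the granule proteoglycan serglycin, which leukocytes also make, fell by 1.72 (SE 0.19, limma adjusted p = 0.0027). Il1rl1, through which interleukin-33 acts, was 1.81 higher at day 3 on the log2 scale (SE 0.23, limma adjusted p = 0.00391), with levels of 10.28, 10.61 and 10.03 at day 1 and 11.68, 12.43 and 12.24 at day 3. Gata2, with levels between 7.75 and 8.24 in all 6 rats, differed by 0.22 (SE 0.14, adjusted p = 0.33). Enpp3, a surface phosphodiesterase of mast cells and basophils, was bright at 12.92 to 13.46 and differed by -0.04 (adjusted p = 0.913). Ltc4s, the leukotriene C4 synthase, was above background on 0 day 1 arrays and 3 day 3 arrays. Its difference of 0.71 did not pass (SE 0.21, limma adjusted p = 0.0521). With values below background set to the limit it was 0.47 (limma adjusted p = 0.152).

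Further rat mast cell proteases were at or near background. Mcpt3 and the tryptase Tpsg1 were above the limit on 0 arrays and Mcpt10 on 1. Mcpt4 and Mcpt9, which were tested, lay near the limit with levels of 6.29 to 6.57 and differed by 0.02 and -0.03. Slc18a2, the transporter that loads histamine into granules, and Rab27b, which moves granules, were above the limit on 0 arrays. Several basophil and eosinophil genes were at background too. Mcpt8 and Prss34, proteases of basophils, and Epx, the eosinophil peroxidase, were above the limit on 0 of 6 arrays, while the chemokine receptor Ccr3 was above it on all 6 arrays and differed by -0.03 (adjusted p = 0.872). Of the 3 genes tested Cebpe fell by 0.89 (SE 0.22, adjusted p = 0.0308, and 0.108 at its highest with 1 rat left out).

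**Figure D4:**
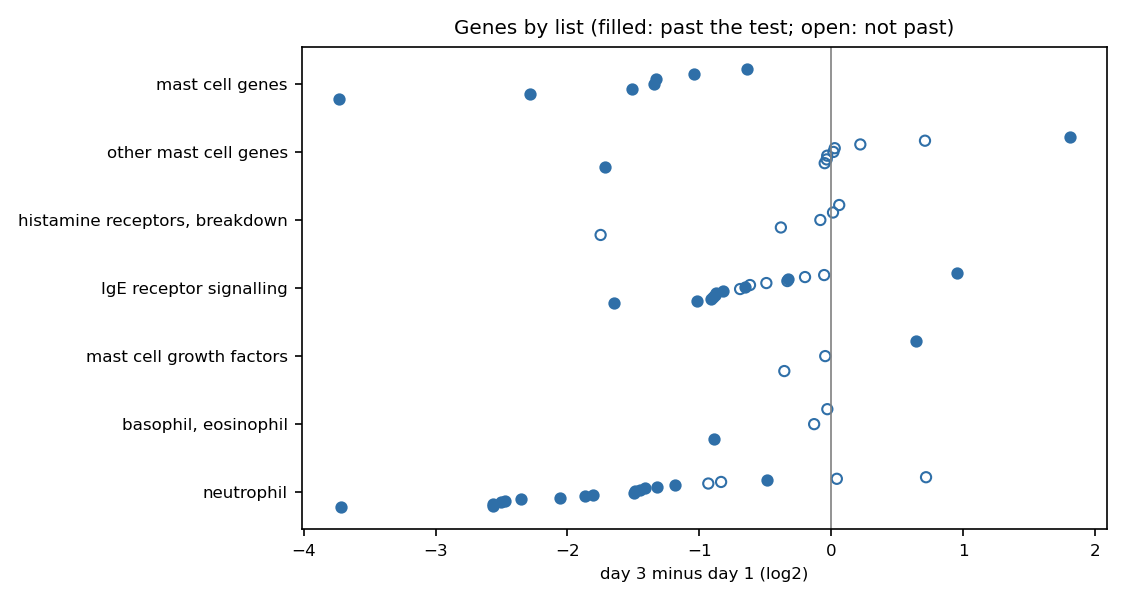
Difference between days (x axis, day 3 minus day 1, log2) for each tested gene of 7 lists (rows), 1 point a gene, filled where limma's adjusted p was below 0.05. The 7 mast cell genes tested, of which Ms4a2 and Fcer1a were above background on 1 day 3 array, are filled and lie left of 0, whereas 7 of 9 other mast cell genes and 5 of 5 histamine receptor and breakdown genes are open.

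Genes that sense and clear histamine showed no change past the test. All 9 listed had a probe and 5 were tested, with 0 that fell and 0 that rose by limma's adjusted p; 1 of them, Maob, had an unadjusted p under 0.05. Of the histamine receptors Hrh2 and Hrh4 were above background on 0 arrays and Hrh1 on 2, both of day 1. Hrh3 read log2 6.98, 6.92 and 7.58 at day 1 and 6.95, 7.08 and 7.19 at day 3. Hnmt, which methylates histamine, was above background on 0 arrays, and Aoc1, the diamine oxidase, lay near the limit with 6.35 to 6.58. Maob, which oxidises methylhistamine, differed by -0.38 (SE 0.11, adjusted p = 0.0515). It was past the test without rat 3 (adjusted p = 0.0241), with cyclic loess (0.0396), with array weights (0.00858) and with values raised to the background limit (0.0457).

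Slc22a3, a transporter that takes up histamine and other amines, had a level of 11.56 in rat 3 and of 6.46 to 6.97 in the other 5 rats. Its difference of -1.75 (SE 1.26, adjusted p = 0.395) was -0.13 without rat 3, the rat with high adipocyte genes.

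Signalling genes of the IgE receptor, which other leukocytes share, were mostly lower at day 3. Of 16 tested 9 fell, 1 rose and 6 did not pass, with a median of -0.67. Of all probes tested 9.97% fell and 12.6% rose. The number of signalling genes that fell was between 2 and 11 with 1 rat left out (2 without rat 2, 3 without rat 1, 6 or 7, and 5 without rat 4). The adaptor Lcp2 fell by 1.65 (SE 0.21), the phosphatase Inpp5d by 1.02 (SE 0.13) and the kinase Lyn by 0.91 (SE 0.23, adjusted p = 0.115 without rat 6). Plcg1, a phospholipase, rose by 0.95 (SE 0.22, adjusted p = 0.0913 without rat 2). Fcer1g, the signalling chain that the receptor shares with Fc receptors of other leukocytes, read log2 15.12 to 15.41, near the highest value of any probe, 15.47, and differed by -0.20 (SE 0.09, adjusted p = 0.183).

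Of the factors that grow and activate mast cells, Kitlg, the ligand of Kit, and Il3, Il9 and Il13 were above background on 0 arrays. Il33, an alarmin that acts through Il1rl1, rose by 0.64 (SE 0.13, adjusted p = 0.0169), from 11.86, 12.06 and 11.80 to 12.34, 12.66 and 12.65, and did not pass without rat 1, 6 or 7, with 0.0708 as its highest adjusted p. Il33 and Il1rl1 were thus both higher at day 3 in all 3 rats. Which cells made them cannot be told in bulk tissue, and a link to the mast cell genes was not tested.

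In the neutrophil list 16 of 20 tested genes fell, 0 rose and 4 did not pass (median -1.49), where 9.97% of all probes tested fell and 12.6% rose. Of the neutrophil list 10 fell without rat 2 and 5 without moderation of the variance. Several genes of this list, Arg1 and Ncf4 among them, are also made by macrophages or other cells, so the list is not specific to neutrophils. Beside the fall of 3.73 in Hdc, Retnlg fell by 3.71 (SE 0.78, adjusted p = 0.0188, and 0.0523, 0.0728, 0.0506 and 0.0686 without rat 1, 2, 6 or 7), and Pglyrp1 and Mmp8 each fell by 2.57 (SE 0.35 and 0.28). The summed intensity of the 7 mast cell genes, of which Hdc is the brightest at day 1, was 8310, 7583 and 4944 in rats 1, 2 and 3 and 1904, 1198 and 1561 in rats 4, 6 and 7.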

How the data were processed

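RNA of 6 implants, 1 per rat, was measured on Illumina rat BeadChip arrays; 100 ng of total RNA was amplified and biotinylated, per the labels' protocols. The values are the authors' deposited intensities on the linear scale, already quantile-normalised, as 22456 of 22517 ranks were equal across arrays within 0.01 (range 60.6 to 45354). The submitters' processing notes name limma. The background setting is not given in the sources used here. A non-normalised table was not used, because its 12 columns match no sample label.

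The deposited intensities were corrected with normexp (offset 50), quantile-normalised and taken to log2. Background was estimated from the values: mode 86.2, and limit 101 at the 95th percentile of a normal distribution with the spread below the mode. Probes above it on at least 3 arrays (12097) were fitted with limma 3.58.1 (R 4.3.3; lmFit, eBayes, two-sided, Benjamini-Hochberg over all kept probes, threshold 0.05). A gene is its brightest kept probe. Of the probes 13787 carried 1 symbol, 0 several and 8730 none; symbols were updated through RefSeq.

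The genes, lists and tests were chosen with earlier results of these data known. Named were all mast cell genes with a probe, genes of the other mast cell, histamine and neutrophil lists, up to 3 per direction of the other lists (or the 3 brightest), and the 10 profiles nearest to Hdc and to Tpsab1. Dim genes, summed markers of other cells and Fcer1g were added after their values were seen. The fit was tested on simulated data. Alternatives were no background correction, offset 16, cyclic loess, no or a stricter filter (99th percentile, all 6 arrays), other variance models, array weights, values raised to the limit and leaving out each rat. The number of arrays limits the precision.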

Additional observations from a re-analysis of the deposited data

How the results depend on the processing

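No paired analysis was possible because the day 1 and day 3 arrays carry different rat numbers and come from different animals. The fall of Hdc and of Tpsab1 was past the test in all 15 alternatives. Hdc ranked behind Retnlg without background correction, with cyclic loess and without rat 3, 4 or 6, and its lowest rank was 5, without rat 1. The number of mast cell genes that fell was 2 without moderation of the variance and 3 with the stricter filter, which left only Hdc, Tpsab1 and Cma1 among the genes tested; it was 6 with no filter, 7 in the other alternatives that kept all rats, and between 3 and 7 with 1 rat left out. None rose in any alternative. Over all probes 2729 passed; 1057 passed without moderation, and with 1 rat left out between 1314 and 3799. The gap between Hdc and Retnlg changed by 0.027 without background correction, the opposite sign of its value of -0.02, and by between -0.66 and 0.315 with 1 rat left out (0.271 without rat 3, 0.292 without rat 4); it was never past the test, and the cause was not tested. The other 6 gaps kept their direction in each of their 8 alternatives. Over 57 named genes, 57 of the 842 refitted differences were no longer past the threshold, 13 newly passed, and none that passed in either setting turned direction. Ltc4s passed with offset 16 (1.12, adjusted p = 0.0319), with a trended robust variance and without rat 6, but in no other alternative. Maob passed in 4 alternatives. Folds of dim genes depend on the background correction: Fcer1a differed by -1.17 without it and by -1.94 with offset 16, and Ms4a2 by -0.55 and -0.97. Values below the limit of 101 have no order, and genes below it on all arrays were not shown to be absent.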
